A study of Mus musculus with 4 samples.

Results

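The sites described here are Max peaks inside genes, away from promoters, at which no peak of Bio-Myc was called. They were selected on the positions and scores of the deposited Max and Bio-Myc peak lists, as Max peaks that overlapped no Bio-Myc peak by 1 bp, lay outside the 1 kb on each side of every annotated TSS, and had their centre between the start and the end of an annotated gene. Genes were those of GENCODE M1 on mm9, 18 autosomes were considered without chromosome 8, and peaks at a score of 3100 were left out. This rule kept 1232 Max-only distal genic peaks, which are 10.7% of the 11570 Max peaks and 12.2% of the 10104 Max peaks considered. Among the 10104 peaks, 7290 (72.1%) overlapped no Bio-Myc peak, and among the 1454 distal genic Max peaks the number was 1232 (84.7%). The rule fixed these counts, so they describe the set and test nothing.

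The study mapped Myc and Max in E14 mouse embryonic stem cells (ESCs) by chromatin immunoprecipitation and sequencing (ChIP-Seq). The Max ChIP used parental wild type cells and an antibody against Max, with an IgG ChIP of the same cells as its control. The Bio-Myc ChIP used a stable E14 clone that expressed Myc carrying a biotinylated tag at the N-terminus, captured with streptavidin beads. By the methods the clone was made from BirA-ES cells, which carry the biotin ligase, by adding tagged Myc under a ubiquitous promoter. The control of the Bio-Myc ChIP was a mock ChIP. The labels give parental wild type cells for the mock, and the methods give BirA-ES cells without tagged protein. Each ChIP was 1 library, so no value below has an error between cultures. The clone with the ligase and the added, tagged Myc was set beside cells labelled wild type, without the tag. The depth of the libraries is unknown, and the absence of a Bio-Myc peak means that no peak reached the limit of the peak caller, not that Myc was absent.

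Max belongs to the helix-loop-helix leucine zipper family and binds DNA as a dimer. Its partners are Myc and NMyc, which activate genes, and Mnt, Mga and the Mxd proteins, which repress them, and Max can also pair with itself. All these dimers recognise the E-Box, CACGTG, and Max is also found over CpG islands, which are GC-rich stretches that keep their CG dinucleotides and mark most promoters.

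The E-Box is shown first, since of the 25 words searched it was the most often found near the centre of these sites. Of the 1232 peaks, 325 held CACGTG in their central 200 bp (26.4%, 95% Wilson interval 24.0% to 28.9%). In equally wide flanking regions, placed 10 kb from each peak, 66 of 2357 held it (2.80%, 2.21% to 3.55%), and in all 200-bp windows of genes outside promoters the share was 2.26% of 4373598 windows. The share was therefore 9.42 times that of the flanks and 11.7 times that of the windows. These intervals cover counting error over peaks of 1 library. The following lines give 30 bases of mm9 sequence, + strand, around the E-Box nearest the centre in the 10 highest-scoring peaks that held one. They are shown because they carry the recognition sequence in its setting, which for these 10 was mostly protein-coding exons. Of the 325 peaks with a central E-Box, 111 were exonic and 214 intronic. Capitals mark the E-Box.
Nkpd1, chr7:20109029-20109058: cactgggttggaCACGTGctacccagagcg
Tmem121, chr12:114426390-114426419: ccagaccggcgcCACGTGtgcctgaccacg
Dos, chr10:79594422-79594451: tgtgaggatgtgCACGTGtgcggtgacgcg
Chst13, chr6:90259673-90259702: gtcgtccaccagCACGTGacgcaggtcctc
Spnb4, chr7:28189850-28189879: ggccacctccagCACGTGgttctccaccag
B3gnt6, chr7:105342846-105342875: cgctcctggcccCACGTGcgccggatcagc
AB041803, chr6:31166726-31166755: ccgcggacccctCACGTGgccgcctcctcc
Gm996, chr2:25432726-25432755: tgaaggctacttCACGTGcgcgccggccgg
Fzd7, chr1:59540692-59540721: gtggcagtggcgCACGTGgcaggcttcctg
Pole4, chr6:82652838-82652867: gacactgcacaaCACGTGtagctccgcaga

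The peak centres of AB041803 and Pole4 lay in introns and those of the other 8 in coding exons. In Nkpd1, Fzd7 and Pole4 the E-Box lay 58, 49 and 28 bp from the peak centre, whereas in Spnb4 and B3gnt6 it lay 300 and 309 bp away. Of the 10 peaks, 6 held no E-Box in the central 200 bp, and those of Tmem121, Chst13, AB041803 and Gm996 lay 137, 185, 142 and 223 bp from the centre. The same word was present at some weaker peaks in genes of ESC biology, while others, as in Esrrb and Mycn, held none. For comparison, 4 peaks picked for their E-Box are shown. They lie in introns of Nr5a2, an orphan nuclear receptor of the pluripotency network, Ptpn11, the phosphatase that links cytokine receptors to the MAP kinase pathway, and Igf1r, the receptor of insulin-like growth factors, and in an exon of Mta3, a subunit of the NuRD remodelling complex.
Nr5a2, chr1:138854987-138855016: cagctagggcacCACGTGtgtggtcccaga
Ptpn11, chr5:121639474-121639503: ggggtgtggcagCACGTGgtacctagtctg
Igf1r, chr7:75275072-75275101: ggcaaaacacagCACGTGgcatcccattca
Mta3, chr17:84191808-84191837: gacagatgcttcCACGTGgctgtgtgcttt

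The E-Boxes lay close to the peak centres. In the whole peaks, 539 of 1232 (43.8%, 41.0% to 46.5%) held 639 E-Boxes, of which 347 were in the central 200 bp. The E-Box nearest the centre was at a median of 72 bp from it, within 50 bp in 217 of the 539 peaks (40.3%) and within 100 bp in 331 (61.4%). In 50-bp bins, 9.98% and 7.96% of peaks held an E-Box in the bins next to the centre, and 2.03% in the bin from 150 to 200 bp upstream on the + strand. Most peaks with an E-Box had 1 (452), 75 had 2, 11 had 3 and 1 had 4. The peak with 4 was in Scarf2, a scavenger receptor family gene, and those with 3 of the highest score were in Dos, Pole4, a subunit of DNA polymerase epsilon, Nrp2, a semaphorin receptor, and Vash1, an angiogenesis inhibitor. Their E-Boxes nearest the centre lay 131 bp (Scarf2), 67 bp (Dos), 28 bp (Pole4), 152 bp (Nrp2) and 139 bp (Vash1) away.

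**Figure D1:**
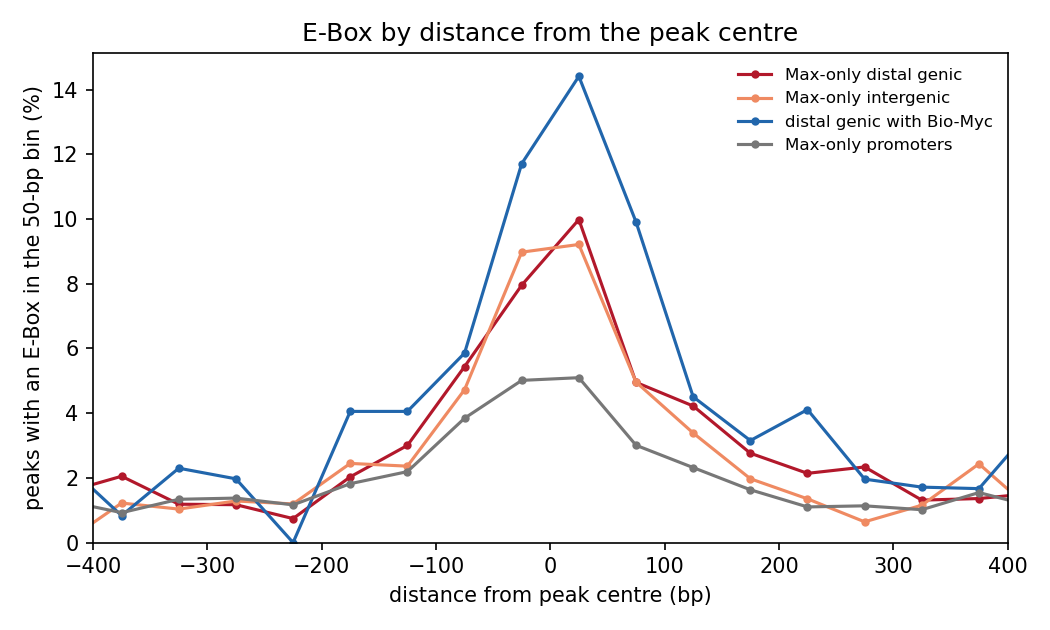
The share of peaks with CACGTG (vertical axis, percent) in 50-bp bins by distance from the peak centre (horizontal axis, bp) is drawn for the 1232 Max-only distal genic peaks, 1270 Max-only intergenic peaks, 222 distal genic peaks with Bio-Myc and 4788 Max-only promoter peaks, counting in each bin the peaks that reach it. The Max-only genic and intergenic lines lie close together and rise to 9.98% and 9.21% next to the centre, below the line of genic peaks with Bio-Myc.

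The E-Box was more frequent at genic peaks with a Bio-Myc overlap than at those without. Of 222 such peaks, 83 (37.4%, 31.3% to 43.9%) held CACGTG in the central 200 bp, so the Max-only peaks were lower (difference -11.01 percentage points, 95% interval -18.0 to -4.40). Fisher's exact test, two-sided, gave p = 0.00113, and 0.00263 with Benjamini-Hochberg adjustment over 14 such tests. The peaks with Bio-Myc also had higher Max scores, with a median of 167 against 123. Within 5 classes of the Max score the difference was -12.3 points (n = 1232 and n = 222 peaks, Mantel-Haenszel p = 3.22e-04), and among peaks with a score of at least 150 it was -9.70 points and no longer passed (exact test, adjusted p = 0.0626). Peaks are not replicates, and these p-values cover counting over the peaks of 1 pair of libraries.

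The difference extended to E-Boxes with certain neighbouring bases. The longer word CCACGTGG was in the central 200 bp of 4.30% of Max-only genic peaks and of 10.4% of those with Bio-Myc, and the variant CATGTG in 19.5% and 29.7% (adjusted p = 0.0188 for each, Fisher's exact test over 50 comparisons of 25 words). CATGTG was nearly as frequent in the flanks of the Max-only peaks (17.2%) as in the peaks. CACGCG, a variant that Max dimers also bind, was in 14.1% of the Max-only peaks against 0.933% of the flanks, and its share with Bio-Myc was 15.8%. The word GCACGTGC was in 2.84% of the Max-only peaks and 1.80% of those with Bio-Myc. A T directly before the E-Box on at least 1 strand, a base known to disfavour Myc, was at 78 of 347 central E-Boxes (22.5%) against 15 of 96 with Bio-Myc (15.6%), a difference of 6.85 points (-2.63 to 14.4, exact test, adjusted p = 0.222), which did not pass. It passed when E-Boxes of the whole peak were taken (10.01 points, exact test, adjusted p = 0.0123) or of the central 500 bp (9.12 points, adjusted p = 0.0421).

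Max-only peaks between genes held the E-Box at the same measured share. Of 1270 Max-only intergenic peaks, 335 (26.4%, 24.0% to 28.9%) held it in the central 200 bp, a difference of 0.00192 points with an interval from -3.45 to 3.46 (exact test, adjusted p = 1). Of 4788 Max-only promoter peaks, 744 held it (15.5%, 14.5% to 16.6%), 10.8 points fewer than in the genic set (8.23 to 13.6, exact test, adjusted p = 4.54e-17). Central E-Boxes preceded by a T were less common in genes than between genes (22.5% against 30.2%, difference -7.75, -14.2 to -1.22, exact test, adjusted p = 0.0365), a call that was lost under 8 other settings. Of the 25 words, the CG palindrome AGCGCT alone passed between the genic and the intergenic Max-only sets (6.82% against 4.17%, exact test, adjusted p = 0.0464).

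**Figure D2:**
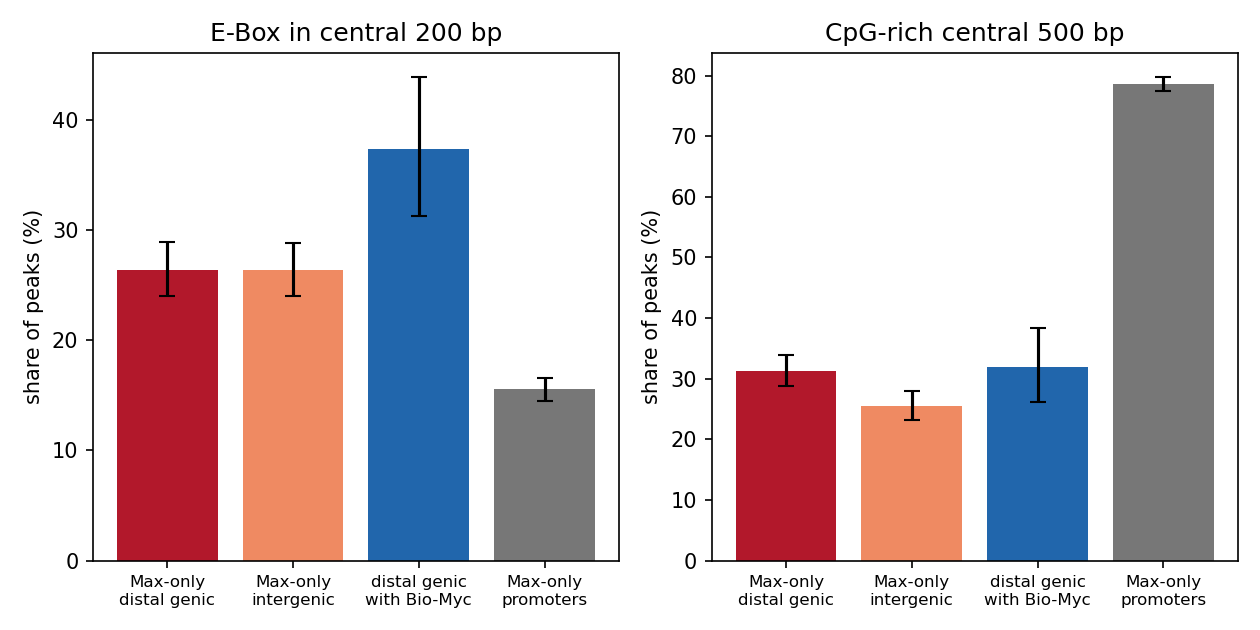
Bars give the share of peaks (percent) with CACGTG in the central 200 bp (left) and with a CpG-rich central 500 bp (right) in 4 classes of Max peaks, with 95% Wilson intervals as error bars. The Max-only distal genic bars stand at 26.4% and 31.3%, below the genic peaks with Bio-Myc for the E-Box and far below the promoters (78.6%) for CpG.

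The E-Box was not the only CG word above its background. The 7 further palindromes built around CG from the same bases were searched in the same way. They were in 0.893% to 9.09% of the central windows, at 1.97 to 8.24 times the flank share, below the 9.42 times of the E-Box. Against the gene windows they were at 2.96 to 10.9 times, and the E-Box at 11.7 times. The variant CACGCG stood above the E-Box on both, at 15.1 times the flanks and 24.4 times the gene windows. The most frequent were TGCGCA (9.09%) and AGCGCT (6.82%). The T-box word AGGTGTGA, of the kind bound by the T-box domain of Mga, was in 1.87% of the peaks and 0.855% of the gene windows. The E2F word GGCGGGAA was in 1.14% of the peaks, 0.382% of the flanks and 0.143% of the gene windows. The octamer ATTTGCAT of Oct factors was in 0.974% of the peaks, close to its flank share (1.02%) and below its gene window share (1.46%). The AP-1 word TGACTCA was in 2.60% of the peaks, below its flank share of 3.65%. Both strands were searched for each, and these matches describe the letters in the windows.

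CpG-rich sequence was the other feature of these sites. A central 500 bp with a GC content above 50% and more than 0.6 of the CG dinucleotides expected from its bases, the classical definition of a CpG island applied to a fixed window, was called CpG-rich. This held for 385 of the 1232 peaks (31.3%, 28.7% to 33.9%) and for 0.258% of 1732853 gene windows of 500 bp outside promoters. Between genes the share was 25.5%, lower by 5.74 points (2.21 to 9.26, exact test, adjusted p = 0.00325), a call that was lost with a promoter window of 5 kb. At Max-only promoters it was 78.6%. With Bio-Myc in genes it was 32.0%, a difference of -0.732 points (-7.61 to 5.63, exact test, adjusted p = 0.877) that turned positive under 9 of the other settings. The median GC content of the sites was 56.4% and the median ratio of observed to expected CG was 0.451, against 64.2% and 0.780 at Max-only promoters.

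E-Box and CpG-rich sequence marked mostly different peaks. Only 77 of the 385 CpG-rich peaks (20%) held a central E-Box, against 248 of the other 847 (29.3%), a difference of -9.28 points (-14.1 to -4.07, exact test, adjusted p = 0.00173) that did not pass over whole peaks or at scores of at least 150. A total of 599 peaks (48.6%) had neither feature, 308 (25%) were CpG-rich alone, 248 (20.1%) had the E-Box alone and 77 (6.25%) had both. The lower E-Box share in CpG-rich peaks was also seen between genes (17.6% against 29.4%), at genic peaks with Bio-Myc (23.9% against 43.7%) and at Max-only promoters (12.8% against 25.5%).

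The combination was also viewed from the side of the genome. Here the E-Box was sought anywhere in a 500-bp window, not in the central 200 bp of a peak. The shares are therefore not directly comparable with those of the peaks. Of the 500-bp gene windows that were neither CpG-rich nor held an E-Box, 0.0342% held the centre of a Max-only site (558 of 1632259). With an E-Box alone the share was 0.337% (324 of 96118), with CpG-rich sequence alone 5.88% (232 of 3949), and with both 21.4% (113 of 527, 18.2% to 25.2%). An E-Box thus went with a higher share of occupied windows in either composition. Most E-Boxes in gene bodies were nevertheless outside these peaks.

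**Figure D3:**
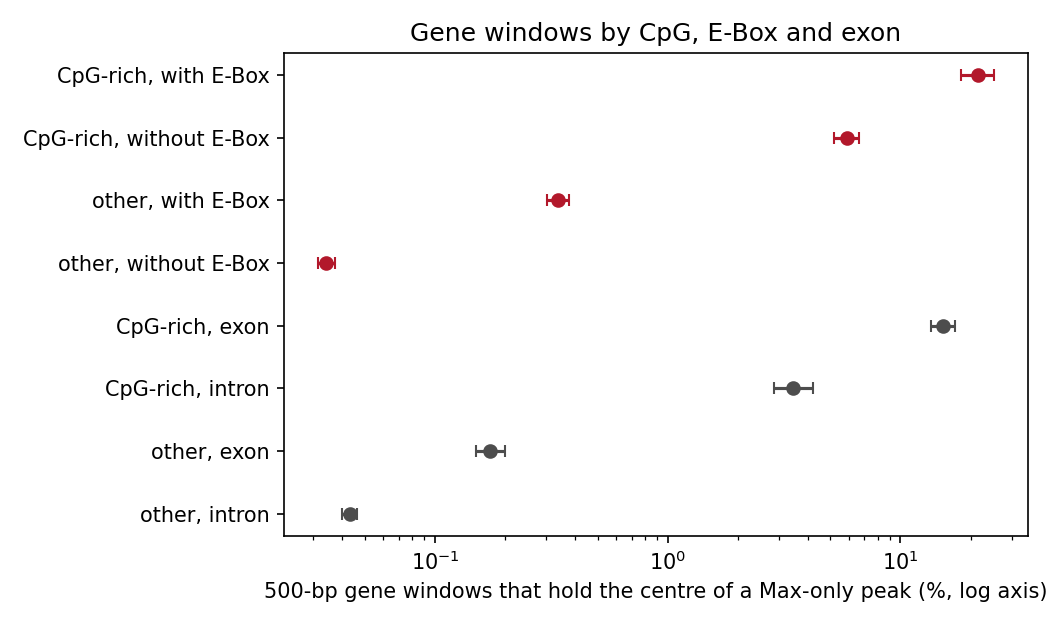
The share of 500-bp windows of gene bodies outside promoters that hold the centre of a Max-only site (horizontal log axis, percent, with 95% Wilson intervals) is given by composition and E-Box (upper 4 points) and by composition and exon or intron (lower 4 points). It runs from 0.0342% without either feature to 21.4% with both, and from 0.0430% in introns to 15.3% in CpG-rich exon windows.

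The sites lay in exons far more often than the length of exons in genes gives. Their centres were in exons for 482 peaks (39.1%, 36.4% to 41.9%), while exons made up 6.37% of gene bases outside the promoter windows, a ratio of 6.14. Coding exons held 388 (31.5%, against 2.72% of bases), 3' UTRs 60, 5' UTRs 4, exons of noncoding transcripts 30 and introns 750. On the 1 transcript taken for each host, 241 centres were in the last exon, 192 in an internal exon, 7 in the first exon, 5 in single-exon genes and the rest in introns. Along the host gene from its TSS, 5 equal parts in order held 235, 218, 200, 235 and 344 peaks, so that the end of the gene held the most (27.9%). The rule removed peaks at TSSs, and with them the start of most genes.

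**Figure D4:**
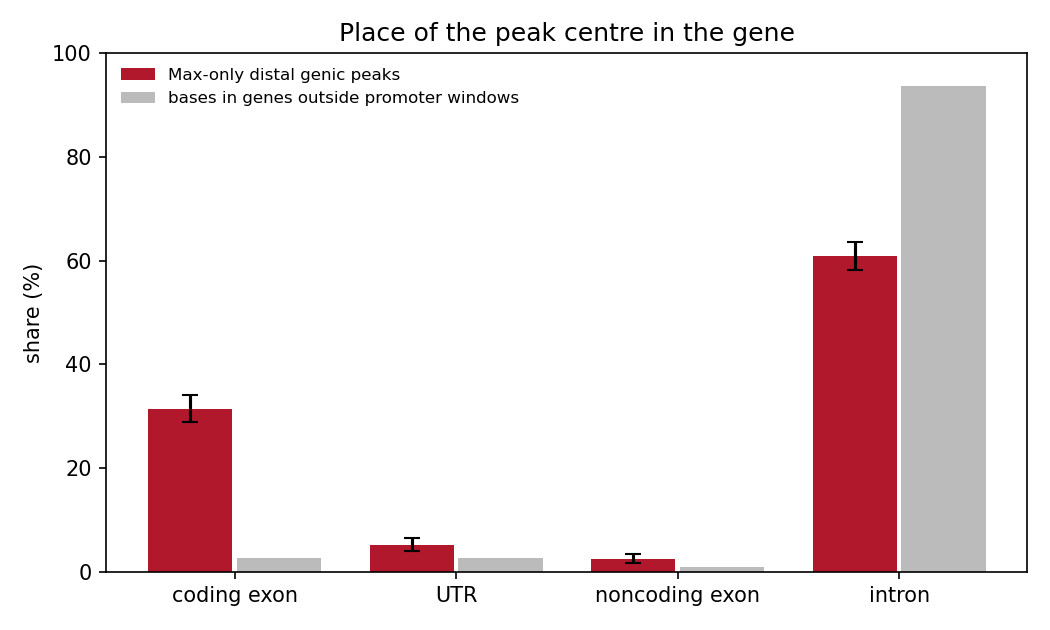
Red bars give the share of the 1232 Max-only distal genic peaks (percent, with 95% Wilson intervals) whose centre lies in each part of a gene, and grey bars the share of gene bases outside promoter windows. Coding exons hold 31.5% of peaks on 2.72% of bases, and introns 60.9% on 93.6%.

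Exonic and intronic sites differed in composition. Of the 482 exonic peaks 291 (60.4%, 55.9% to 64.6%) were CpG-rich, and of the 750 intronic peaks 94 (12.5%, 10.4% to 15.1%), a difference of 47.8 points (42.7 to 52.6, exact test, adjusted p = 1.28e-69). Coding exons are richer in GC than introns, and of all CpG-rich gene windows 36.0% had their centre in an exon, against 75.6% of the CpG-rich peaks. Among CpG-rich windows, 15.3% of those in exons held a site (246 of 1613) and 3.46% of those in introns (99 of 2863). Of the 847 peaks that were not CpG-rich, 191 (22.6%) were exonic, also above 6.37%. The E-Box was in 23.0% of exonic and 28.5% of intronic peaks (difference -5.50, -10.4 to -0.463, exact test, adjusted p = 0.0531), which did not pass and passed under 7 other settings. The median score was 142 in exons and 114 in introns.

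CpG content and place in an exon varied with the peak score within the set. Scores ran from 80.02 to 2097 with a median of 123 (quartiles 95.8 and 177), and widths from 322 to 3053 bp with a median of 746 bp. In 4 equal groups of 308 peaks from the lowest to the highest score, the CpG-rich share was 14.0%, 21.1%, 29.6% and 60.4% (highest minus lowest 46.4 points, exact test, adjusted p = 2.12e-33), and the exon share was 26.6%, 34.7%, 37.3% and 57.8%. The share with a central E-Box was 27.6%, 27.0%, 27.6% and 23.4% (difference -4.22, -11.1 to 2.66, exact test, adjusted p = 0.340). Over the whole peak, which is wider at high scores, the same difference was 13.6 points (exact test, adjusted p = 0.00181).

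**Figure D5:**
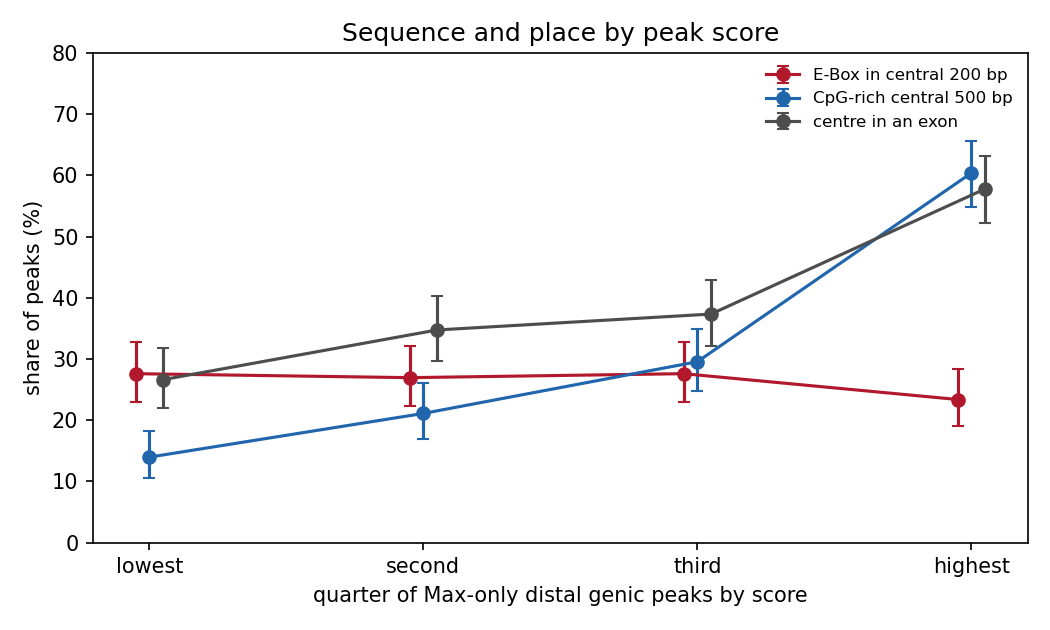
The share of peaks (vertical axis, percent, with 95% Wilson intervals) with a central E-Box, with a CpG-rich centre and with the centre in an exon is drawn for 4 equal groups of the Max-only distal genic peaks by score, 308 peaks each. CpG-rich peaks rise from 14.0% to 60.4% and exonic peaks from 26.6% to 57.8%, while the E-Box share stays between 23.4% and 27.6%.

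Most of the highest-scoring sites were CpG-rich and exonic. Of the 50 highest, with scores of at least 425, 39 were CpG-rich, 34 were exonic and 29 held an E-Box in the whole peak. Kcnk3, which encodes a background potassium channel, had a score of 1467 in its last exon, exon 2, with 65.0% GC and no E-Box. The other CpG-rich sites among the first 10 were in Nkpd1 (score 891), Nrtn, a ligand of the GDNF family (876), Tmem121 (843), Dos (785), Isl2, a LIM homeodomain factor of motor neurons (755), Chrna10, a nicotinic acetylcholine receptor subunit (749), and Chst13, a chondroitin sulfotransferase (729). Their edges were 1519 bp (Tmem121) to 6747 bp (Chst13) from the nearest TSS, except for Kcnk3 at 24790 bp, and all but Nrtn had their centre in an exon. Bio-Myc peaks were 9.69 kb away for Dos, 11.6 kb for Nrtn and over 100 kb for the others of these 8.

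A few others were poor in GC. The 2 highest scores of all, in intron 3 of Sp110, a nuclear body protein (2097), and in an exon of the predicted gene Gm10801 (1622), came with a GC content of 43.2% and 35.6% and no E-Box. Among the 50 highest, 6 had a GC content below 45%, and the other 4 were in Chl1 (644), Gm13242 (641), Gm13251 (627) and Gm13227 (465). None of the 6 held an E-Box. No control library was analysed here, so whether reads were also raised at these 6 without Max (copy number, mapping) was not tested. The central 100 bases of Kcnk3, of Chst13 and of Sp110 (mm9, + strand, each CG in capitals) show the contrast, with 11, 10 and 1 CG. The windows of Kcnk3 and Chst13 are wholly coding sequence.
Kcnk3, chr5:30924737-30924836: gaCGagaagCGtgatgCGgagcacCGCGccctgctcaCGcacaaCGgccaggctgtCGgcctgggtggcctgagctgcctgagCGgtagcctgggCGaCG
Chst13, chr6:90259454-90259553: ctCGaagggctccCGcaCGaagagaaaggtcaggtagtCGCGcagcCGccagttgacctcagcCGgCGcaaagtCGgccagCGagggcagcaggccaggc
Sp110, chr1:87488786-87488885: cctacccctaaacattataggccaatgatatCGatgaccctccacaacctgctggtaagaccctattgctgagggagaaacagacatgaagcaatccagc

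The sites were spread over 1027 host genes, of which 886 had 1 and 141 had more. The 5 hosts with the most held 40 of the 1232 sites (3.25%), with an E-Box in 5. Dnahc8, an axonemal dynein heavy chain gene of 251 kb on chromosome 17, had 14, and these were all the Max peaks in the gene, with scores of 80.3 to 327, GC contents of 36.8% to 54.6% and an E-Box in 3. No Bio-Myc peak lay in Dnahc8. On chromosome 4, Gm16889 had 10, and Gm13242 and Gm13227, more than 1 Mb away, had 5 each, none with an E-Box or CpG-rich. In the 1-Mb stretches that hold these genes, sites were 17 of 20 Max peaks at 30 to 31 Mb of chromosome 17, 13 of 19 at 145 to 146 Mb of chromosome 4 and 10 of 20 at 146 to 147 Mb. No input or control library was analysed here, so whether reads were also raised there without Max (copy number, mapping) was not tested. Rnf220, a ubiquitin ligase gene with 6 sites, had 2 CpG-rich ones and 2 with an E-Box. Without these 5 hosts the share with a central E-Box was 26.9% and the difference from genic peaks with Bio-Myc -10.5 points (exact test, adjusted p = 0.00411).

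Host genes were mostly protein-coding. There were 950 coding hosts with 1129 sites, which are 4.67% of the 20336 coding genes, with 41 lincRNA genes, 31 processed transcripts and 5 pseudogenes. Coding hosts had a median length of 35.5 kb, against 14.9 kb for other coding genes. Of the hosts, 425 (44.7%, 41.6% to 47.9%) also had Max bound at a TSS (within 1 kb), where 34.8% of all coding genes did, and 124 (13.1%, 11.1% to 15.3%) had a Bio-Myc peak there, where 15.0% of all did. Neither was at the promoters of 510 hosts (53.7%). That share is not given here for other coding genes, so it does not show whether hosts differ. Within classes of gene length the Max shares of hosts and of other coding genes were 33.5% and 23.8% up to 10 kb, 41.7% and 41.4% from 10 to 30 kb, 50% and 44.2% from 30 to 100 kb, and 49.6% and 36.5% above. The Bio-Myc shares were 4.19% and 10.8%, 14.7% and 19.1%, 14.5% and 19.2%, and 15.8% and 12.4%. Hosts of up to 100 kb had Bio-Myc at their promoters at a lower measured share than genes of like length, and the longest hosts did not.

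Few sites lay close to a Bio-Myc peak. The nearest was at a median of 73.9 kb from the peak edge, over 100 kb away for 504 sites (40.9%) and within 2 kb for 34. For Max-only intergenic peaks the median was larger, 93.5 kb, with 48.7% over 100 kb away. Within 10 kb were 158 sites (12.8%) and 148 Max-only intergenic peaks (11.7%, difference 1.17 points, -1.40 to 3.75, exact test, adjusted p = 0.458). The nearest TSS was at a median of 6.49 kb from the peak centre, and 149 sites (12.1%) had one within 2 kb. Just inside the 1-kb limit were Fzd7, Lats2 and 9930013L23Rik, each with its edge 1008 bp from a TSS and scores of 627, 171 and 164. Just outside were peaks at Apoe (995 bp, score 156), Smtn (994 bp, 288) and Celsr3 (982 bp, 132). No peak at the score limit met the rest of the rule.

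A few sites held a TSS of the RefSeq annotation that GENCODE M1 does not place there. The RefSeq sequence around a TSS (50 bases to either side, GRCm38.p6, compared letter by letter) was found in 24 of the 1232 peaks (1.95%), in 6.93% of the intergenic ones and in 54.7% of Max-only promoters. In Hhex, Dnmbp and Dgka it was that of the host itself, and in the other 21 that of another gene, such as Gm38485 in Foxo3 and Gm19417 in Nfia. Without them the E-Box share was 26.6%.

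Over 13 gene lists, 25 genes hosted 30 sites, with a median score of 106. The share of hosts was above the 4.76% of all coding genes that lie over a site in 10 of the 13 lists. The lists were chosen with earlier results known, and hosts were longer than other genes. Of 13 genes of the Max network, 2 were hosts. Mlxipl, a glucose-responsive partner of Mlx, had a site in intron 1 (score 118), and Mycn, encoding NMyc, had 1 in its last exon (82.4, CpG-rich), 5.32 kb from a Bio-Myc peak. None of Max, Myc, Mnt, Mga or the Mxd genes on the list hosted one. Of 22 pluripotency factors, Esrrb (86.5, 162 bp from a Bio-Myc peak) and Nr5a2 (80.7) were hosts, and both had Max at their promoters. Of 22 germline genes none was a host, where 4.76% of all coding genes were, and Max was at the promoters of 19. Of 32 Polycomb genes 1 was, Cbx8 (90.7), with an E-Box in a CpG-rich last exon.

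Signalling genes held some higher scores. Of 29 Wnt genes 2 were hosts, Fzd7, a Wnt receptor (627), and Tcf7l1, a repressor at Wnt targets (81.3). Of 24 genes of the FGF and MAP kinase pathway 3 were, with Etv5, an Ets factor induced by it (215, 2 E-Boxes), Fgfr2, a receptor, and Ptpn11 (93.1). Fgfr2, as annotated, spanned chr7:137305965-140315033. That span held 3 sites (147, 145 and 98.4), and the TSSs nearest to them were those of other genes, Ctbp2, Gm15582 and Hmx2. Whether these sites belong to the receptor gene was not tested. A Bio-Myc peak lay 1.36 kb from the site at 147, 1.25 kb from that of Ptpn11 and 4.10 kb from that of Etv5. Ptpn11 also had Bio-Myc at its promoter. Of 15 LIF and JAK-STAT genes Ptpn11 and Socs3, a feedback inhibitor (80.3), were hosts. Of 26 TGF-beta, BMP and Nodal genes there were 2, Smad6, an inhibitory Smad, with a CpG-rich site in its last exon (241), and Bmp4 (91.7). The insulin, PI3 kinase and mTOR list had the largest share, 4 of 20. Its 5 sites were in introns of Irs1, the receptor's adaptor (225), Foxo3, a transcription factor that Akt inhibits (177, 2 E-Boxes), Igf1r (107) and Rptor, the mTORC1 scaffold (96.1), and in a coding exon of Foxo3 (118). The intronic Foxo3 site lay 2.69 kb from a Bio-Myc peak, and Foxo3 had Bio-Myc at its promoter.

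Sites in chromatin and cell cycle genes scored from 80.9 to 155. Of 28 chromatin remodellers 3 were hosts, Mta3 (126), Bptf (96.7) and Smarcd1 (80.9). Of 13 genes of DNA methylation 2 were, Tet1, a methylcytosine dioxygenase, with a CpG-rich site in intron 1 (155), and Dnmt3b, a de novo methyltransferase (105). Of 34 cyclins and cyclin-dependent kinases Ccnd3 was a host, with 2 sites in intron 1 (154 and 96.3). Bio-Myc peaks lay 1.63 kb from the Smarcd1 site, 7.92 kb from that of Tet1 and 8.16 kb from the higher Ccnd3 site. Smarcd1 also had Bio-Myc at its promoter. Of 30 long neuronal genes, a list of large genes for comparison, Nfia (205) and Immp2l (113 and 90.8) were hosts. Each list had at most 4 hosts, and no list was tested.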

How the data were processed

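The authors sequenced each ChIP on an Illumina HiScanSQ, mapped unique reads to mm9 with Bowtie 0.12.7, collapsed duplicates and called peaks with MACS 1.4.1, using the mock and IgG ChIPs as controls and a constant limit. Each deposited list holds peak positions and a score, which the authors give as the −log10 of the MACS p-value times 10, with a lowest value of 80.02 in the Max list. Of the 4 samples, the 2 control libraries were not analysed on their own. With a constant limit more reads give more peaks, and the depth is unknown, and unique mapping leaves out repeated sequence. Scores were compared within the Max list only.

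The mm9 sequence and GENCODE M1 were used. Promoters reached 1 kb to each side of every TSS. The host was the protein-coding gene over the peak centre where there was one. The E-Box was searched in the central 200 bp and CpG content in the central 500 bp. Shares have 95% Wilson intervals and differences 95% Newcombe intervals. Comparisons of shares used two-sided Fisher's exact tests with Benjamini-Hochberg adjustment over 14 tests at a threshold of 0.05. RefSeq TSS sequences were matched by letters. The members and the gene lists were chosen with earlier results of these data known. The genes named were the 10 highest-scoring members, at most 4 hosts of each list, the 5 hosts with the most members, the 5 members with the most E-Boxes and those next to the limits of the rule. Fzd7 was named under more than 1 of these. The 6 GC-poor members of the 50 highest-scoring, the pairs of RefSeq and host names and the 4 E-Boxes of weaker peaks were named after their values were seen. Alternatives were other overlaps, score limits, promoter windows, TSS sets, gene sets, chromosomes and sequence windows. Python 3.11.15, numpy 2.4.6, scipy 1.17.1, statsmodels 0.14.6 and matplotlib 3.10.9 were used. The steps were tested on simulated data, and 7 of 7 returned the known answer. Coordinates are 1-based.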

Additional observations from a re-analysis of the deposited data

Results flagged for a closer look

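Chromosome 8 was left out of the rule. On it, 360 of 1357 Max peaks (26.5%) were distal, inside a gene and without Bio-Myc, against 12.2% of the Max peaks on the autosomes considered. These 360 peaks entered the comparisons only under the setting with all chromosomes. Their median score was 139, and 11.7% of them (8.75% to 15.4%) held an E-Box in the central 200 bp. The IgG library was not analysed on its own here, and the difference was not tested.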

How the results depend on the processing

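No paired analysis was possible because each ChIP was 1 library. Across the alternatives, 135 comparisons of the principal results with another setting gave the same verdict. A further 16 counts or shares moved, 12 differences changed sign, 9 gained a call and 2 lost it. Taking away the upper score limit changed no site, so its verdicts on the principal results were fixed in advance. The number of sites was 426 at a Max score of at least 150 and 676 with a promoter window of 5 kb. The central E-Box share was 22.9% on all chromosomes, and 43.8% over the whole peak and 38.9% over the central 500 bp, which are longer. Against genic peaks with Bio-Myc, the E-Box difference was -9.70 points at a Max score of at least 150 and did not pass, with fewer peaks. Against intergenic peaks, where no call was made, it turned to -0.180 (no Bio-Myc within 1 kb), -0.116 (overlap of 50%), -0.826 and -2.92 (Max scores of at least 100 and 150), -0.614 (Bio-Myc score of at least 100), -0.556 (5 kb), -2.11 (outermost TSS), -0.109 (all chromosomes) and -0.162 (without RefSeq TSSs). The CpG-rich difference from intergenic peaks was 4.71 points at 5 kb and did not pass. The E-Box difference between exonic and intronic sites passed in the order no Bio-Myc within 1 kb (-5.69), Bio-Myc score of at least 100 (-6.69), window of 500 bp (-6.03), outermost TSS (-5.97), coding genes (-6.94), central 500 bp (-7.98) and without the 5 densest hosts (-6.46). Between the highest and lowest score groups it turned to 0.218 (outermost TSS), 13.6 (whole peak) and 2.27 (central 500 bp). The exon share was 43.9% and 52.1% at Max scores of at least 100 and 150, 35.4% at 5 kb, 42.3% with the outermost TSS and 35.6% on all chromosomes. The share of all hosts with Max at a promoter (43.9%) was 36.6% and 24.7% at the 2 score limits, 40.6% at 500 bp, 49.7% at 5 kb, 60.7% with the outermost TSS and 48.2% on all chromosomes. The score limits also removed promoter peaks, so those shares have no matching share of all genes here. With the outermost TSS, sites near an inner TSS counted as promoter peaks of their own host, so 60.7% cannot be compared with the others. The T-flanked difference from peaks with Bio-Myc was 10.01 points over the whole peak and 9.12 over the central 500 bp, and both passed. The CpG-rich difference from genic peaks with Bio-Myc turned to 0.134 (no Bio-Myc within 1 kb), 4.42 and 10.8 (the score limits), 0.00126 (500 bp), 2.87 (5 kb), 1.77 (coding genes), 0.202 (central 200 bp for CpG), 0.149 (without the densest hosts) and 0.255 (without RefSeq TSSs), and passed at -10.2 with the outermost TSS. Leaving out the densest hosts and the RefSeq TSSs were chosen after seeing the data. The causes of these moves were not tested beyond the changes in peaks or windows named. With 1 library per ChIP and unknown depth, a missing Bio-Myc peak is a limit of detection.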
